A study of Homo sapiens with 11 samples.

Results

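Peaks of 2 histone marks at enhancers, acetylated lysine 27 and monomethylated lysine 4 of histone H3 (H3K27ac and H3K4me1), were compared in SK-N-MC, a human cell line established from an Ewing sarcoma. A peak counted as an enhancer peak when it lay more than 1 kb from both annotated ends of every protein-coding gene on GRCh38 and overlapped no peak of trimethylated lysine 4 (H3K4me3), the promoter mark. The rule left 39288 of the 134925 peaks deposited for 9 targets. They were 10337 of the 21500 H3K27ac peaks (48.1%) and 28951 of the 31247 H3K4me1 peaks (92.7%). All peaks analysed lay on chromosomes 1 to 22 and X.

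H3K4me1 is laid down by the MLL3 and MLL4 methyltransferases and marks enhancers whether or not they are in use. H3K27ac is written by p300 and CBP, is removed by histone deacetylases, and sits on the nucleosomes beside active enhancers and promoters. The DNA a transcription factor occupies is often depleted of nucleosomes, so both marks are known to flank it. Ewing sarcoma is driven by the fusion EWSR1::FLI1, which binds GGAA sequences through the ETS domain of FLI1 and activates enhancers near its target genes.

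The data were 11 samples of this line from chromatin immunoprecipitation with sequencing (ChIP-seq), labelled SKNMC and wildtype throughout, with no treatment in the labels. There was 1 peak list for each of 4 histone marks (H3K27ac, H3K4me1, H3K4me3 and the Polycomb mark H3K27me3), for FLI1 and for 4 subunits of the nucleosome remodelling and deacetylase complex NuRD, beside 2 inputs that were not analysed here. The subunits were the remodelling ATPase CHD4, pulled down with a Flag antibody, the deacetylase HDAC2, the scaffold MTA2, and RBBP4, which binds histones and also belongs to other complexes. The sources used here do not say how CHD4 was tagged.

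With 1 sample per target, no difference below has a replicate check or a test. Percentages carry Wilson 95% intervals where they matter, which cover counting error over peaks only. Neighbouring peaks are not independent, and the read depth of the libraries is unknown. Fold enrichment and −log10 p are the authors' own values for each peak and serve only to describe and rank peaks within a list.

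To show DNA that lay under both marks, the RefSeq promoter windows on GRCh38.p14 (300 bp long, from 250 bp before to 50 bp after an annotated start) were searched for those wholly inside a stretch covered by both enhancer peaks. There were 36 such windows of 34 genes among 34961 windows, 25 of long non-coding RNAs and 11 of internal starts of protein-coding genes. The windows printed are those of the highest mean rank of both marks, LOC105371800 (chr17:45935935-45936234, minus strand, inside the enhancer within MAPT described below) and LOC105378604 (chr1:3323448-3323747, minus strand), with an internal start of MTA3 (chr2:42567795-42568094, plus strand), a paralogue of MTA2 picked after its values were seen. Each is printed 5′ to 3′ along its gene. Capitals mark GGAA or its reverse complement TTCC.
LOC105371800: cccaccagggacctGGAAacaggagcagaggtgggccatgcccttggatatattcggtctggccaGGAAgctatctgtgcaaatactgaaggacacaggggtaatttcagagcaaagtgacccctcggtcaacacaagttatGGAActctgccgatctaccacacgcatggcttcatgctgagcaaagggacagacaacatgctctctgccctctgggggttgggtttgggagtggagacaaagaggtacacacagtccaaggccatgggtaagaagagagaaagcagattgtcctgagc
LOC105378604: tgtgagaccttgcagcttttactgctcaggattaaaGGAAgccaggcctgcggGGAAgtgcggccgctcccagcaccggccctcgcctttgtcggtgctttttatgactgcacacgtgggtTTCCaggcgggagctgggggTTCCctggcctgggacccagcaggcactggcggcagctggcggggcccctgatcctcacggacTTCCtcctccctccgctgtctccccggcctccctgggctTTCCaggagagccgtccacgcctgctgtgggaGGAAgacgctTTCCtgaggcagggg
MTA3: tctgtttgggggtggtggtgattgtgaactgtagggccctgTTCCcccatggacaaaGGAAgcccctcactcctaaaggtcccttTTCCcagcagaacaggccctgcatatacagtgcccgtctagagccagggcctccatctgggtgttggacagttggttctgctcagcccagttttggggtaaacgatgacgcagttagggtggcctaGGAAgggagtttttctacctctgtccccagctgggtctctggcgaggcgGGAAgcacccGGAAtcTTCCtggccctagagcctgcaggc

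The H3K27ac and H3K4me1 peaks over the LOC105371800 window had fold enrichments of 22.7 and 10.97, those over the LOC105378604 window 23.01 and 9.31, and those over the MTA3 window 5.55 and 6.88. These windows held 3, 8 and 7 GGAA matches on both strands together, and no FLI1 peak overlapped any of the 3. GGAA, the ETS core, was present on either strand in 100% of the 36 windows and in 95.5% of all 34961. Its tandem form GGAAGGAA, each copy of which also holds GGAA, was in 2.78% against 3.67%. TGANTCA, the AP-1 letters, was in 16.7% against 7.68%, and TATAAA in 11.1% against 11.5%. TGANTCA was also in 18.5% of 65 windows with H3K27ac and not H3K4me1. It was in 14.7% of 136 windows with H3K4me1 and not H3K27ac, so it was not particular to both marks. The windows under both marks had a median GC content of 52.8% and an observed-to-expected CpG ratio of 0.234. All windows had 58.7% and 0.580, and the 8453 windows inside H3K4me3 peaks had 67.0% and 0.859. A match describes the letters and is no evidence of binding. Enhancer peaks had been chosen for overlapping no H3K4me3 peak. The CpG contrast with windows inside H3K4me3 peaks may follow from that choice and is not a result. The CpG ratio under both marks (0.234) was similar to that under H3K27ac without H3K4me1 (0.232) and under H3K4me1 without H3K27ac (0.198). It was 0.375 in windows under none of the 3 marks.

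Of the enhancer H3K27ac peaks, 6876 (66.5%, 65.6 to 67.4) overlapped an enhancer H3K4me1 peak by at least 1 bp, 1248 (12.1%, 11.5 to 12.7) lay within 1 kb of one without touching it, and 2213 (21.4%, 20.6 to 22.2) had none within 1 kb. Seen from the longer list, 7285 H3K4me1 peaks (25.2%, 24.7 to 25.7) overlapped H3K27ac, 1777 (6.14%) lay within 1 kb and 19889 (68.7%, 68.2 to 69.2) had none within 1 kb. These classes are called overlapping, adjacent and solitary. These shares depend on list length. With H3K4me1 cut to its 10337 strongest peaks, as many as H3K27ac, 32.8% of H3K27ac and 31.6% of H3K4me1 peaks overlapped. In the lists as deposited, most enhancer H3K27ac thus met H3K4me1 and most H3K4me1 met no H3K27ac, while the shares were nearly equal at equal length. Beyond 10 kb from the other mark lay 11.5% of H3K27ac peaks and 56.6% of H3K4me1 peaks.

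The classes are defined between the enhancer subsets. Against the whole partner list, 2117 of the 2213 solitary H3K27ac peaks (95.7%) and 19166 of the 19889 solitary H3K4me1 peaks (96.4%) still had no partner peak within 1 kb. Peaks left out by the rule behaved differently. The 8034 H3K27ac peaks within 1 kb of a gene end and with H3K4me3 overlapped an H3K4me1 peak of the whole list in 3.16%, and the 2419 peaks with H3K4me3 farther from gene ends in 15.3%, against 67.2% of the enhancer peaks. On either side of the 1 kb limit, in strips of 500 bp, the values were 66.2% of 157 H3K27ac peaks without H3K4me3 just inside it and 58.7% of 172 just outside.

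Overlapping peaks were wider than the others. Median widths of overlapping, adjacent and solitary H3K27ac peaks were 697.5, 456 and 449 bp, and those of H3K4me1 peaks were 766, 520 and 520 bp. The fold enrichments were closer, with medians of 6.84, 6.23 and 6.46 for H3K27ac and 6.33, 5.76 and 5.93 for H3K4me1. The marks shared 4.89 Mb, which was 53.7% of the 9.11 Mb under enhancer H3K27ac and 22.99% of the 21.3 Mb under enhancer H3K4me1. In the 7893 overlapping pairs the median overlap was 489 bp, and in 92.2% of pairs it covered at least 50% of the shorter peak. The H3K4me1 peak lay wholly inside the H3K27ac peak in 30.2% of pairs and the reverse held in 24.4%. Within 1 kb, 3866 H3K27ac peaks had 1 H3K4me1 partner, 3353 had 2, 745 had 3 and 160 had 4 or more.

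In overlapping peaks the H3K27ac summit, the position of highest signal, lay a median of 186 bp from the nearest H3K4me1 summit (quartiles 72.0 and 435 bp, n = 6874). Summits were within 100 bp of each other in 32.7% and more than 1000 bp apart in 5.78%. Of all enhancer H3K27ac summits, 54.7% (53.7 to 55.7) lay inside an H3K4me1 peak, and 21.1% (20.6 to 21.6) of H3K4me1 summits lay inside an H3K27ac peak. The share of H3K27ac summits fell to 26.8% with the H3K4me1 list cut to equal length. The share of positions under H3K4me1 was 54.7% at the H3K27ac summit, 33.3% at 500 bp and 28.8% at 1000 bp to either side. H3K4me1 summits lay on both sides of the H3K27ac summit, each in a peak overlapping or within 1 kb, at 3195 of 10334 H3K27ac peaks (30.9%, 30.0 to 31.8), and at 7.13% with H3K4me1 cut to equal length and 16.6% with peaks merged within 500 bp. At 4923 peaks (47.6%) H3K4me1 summits lay on 1 side only. At flanked peaks the 2 nearest H3K4me1 summits were a median of 1309 bp apart (quartiles 956 and 1808 bp). Flanking did not mean that the H3K27ac summit stood between H3K4me1 peaks, since 75.7% of flanked peaks had it inside one.

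Summits of the proteins lay in a dip of H3K4me1 coverage, which summits of H3K27ac did not. Around H3K27ac summits that coverage was highest at the summit itself (54.7%). FLI1 summits at enhancer H3K27ac peaks lay in a place bare of H3K4me1: H3K4me1 covered 3.19% (2.07 to 4.88) of the 627 summits, 13.1% of positions 250 bp away, 45.8% at 500 bp and 56.1% at 950 bp, its highest. H3K27ac covered 42.1% (38.3 to 46.0) of these FLI1 summits, although each FLI1 peak had been chosen for overlapping an H3K27ac peak, and rose to 92.7% at 400 bp. When the peaks of each list within 500 bp of each other were merged, FLI1 summits were chosen anew by overlap with merged H3K27ac. Of that set, H3K27ac covered 93.0% and H3K4me1 8.28%. Merging fills every gap of up to 500 bp and the sets of summits differ, so 42.1% and 93.0% are not values of the same summits. Since H3K27ac had chosen these summits, the order of the marks around them is not a result.

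NuRD subunits had a narrower and shallower dip. H3K4me1 covered 23.2% of CHD4 summits (n = 3661), 18.5% of HDAC2 summits (n = 3184), 17.5% of MTA2 summits (n = 3195) and 15.4% of RBBP4 summits (n = 2403) at the same kind of peak. It peaked at 53.8%, 59.1% and 59.4% at 550 bp for CHD4, HDAC2 and MTA2 and at 57.1% at 600 bp for RBBP4. H3K27ac covered between 57.8% (HDAC2) and 67.3% (CHD4) of these summits and was highest 350 to 400 bp away. The H3K4me1 maximum thus lay nearer to the subunits than to FLI1. At H3K4me1 enhancer peaks without H3K27ac the dip was present too, and H3K4me1 was chosen there. It covered 37.8% of 2093 CHD4 summits and 36.3% of 2028 MTA2 summits against 68.9% and 74.0% at 350 bp, and 19.6% (11.3 to 31.8) of 56 FLI1 summits against 79.5% at 400 bp.

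**Figure D1:**
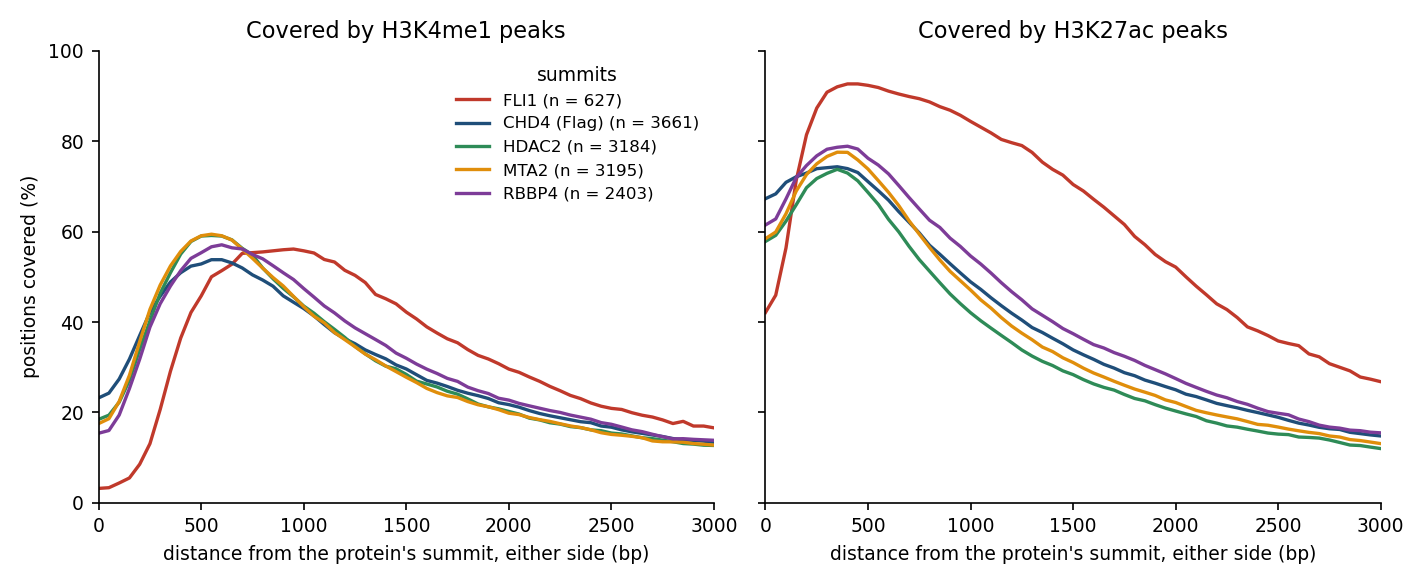
Share of positions covered by enhancer H3K4me1 peaks (left) and H3K27ac peaks (right), in percent, against distance in bp to either side of the summits of 5 proteins whose peaks overlap an enhancer H3K27ac peak. H3K4me1 covers 3.19% of FLI1 summits and 15.4% to 23.2% of subunit summits, and its maximum lies at 950 bp from FLI1 and at 550 to 600 bp from the subunits.

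The same was seen from the H3K4me1 list. Consecutive enhancer H3K4me1 peaks were separated by 2 kb or less at 9954 places. Of the 3044 gaps that met an enhancer H3K27ac peak, 14.2% (13.0 to 15.5) held a FLI1 summit, 47.0% a CHD4, 48.3% an HDAC2, 50.0% an MTA2 and 41.3% an RBBP4 summit. Of the 6910 gaps without one the shares were 1.58%, 16.5%, 18.6%, 17.9% and 14.4%. The gaps with H3K27ac were wider (median 528.5 bp against 353.5 bp), and densities per Mb take that into account. FLI1 had 229 summits per Mb in gaps with H3K27ac and 30.1 in gaps without. Inside the H3K4me1 peaks themselves it had 3.40 per Mb where H3K27ac overlapped and 0.492 where it did not. MTA2 had 800 and 342 per Mb in the 2 kinds of gap and 88.7 and 47.3 inside H3K4me1 peaks. Gaps with both H3K27ac and a FLI1 summit had a median width of 908 bp, against 471 bp for those with H3K27ac and no FLI1 summit. A wider gap has more room to hold any summit, so this difference is not a result about FLI1.

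FLI1 and flanking went together, and so did FLI1 and width. The 747 H3K27ac peaks with FLI1 were flanked by H3K4me1 on both sides in 51.2% (47.6 to 54.8) and the 9590 without FLI1 in 29.3% (28.4 to 30.3), with median widths of 1865 and 550 bp. Within the 2068 peaks of highest fold, the shares were 53.6% with FLI1 (n = 538) and 39.5% without (n = 1530), at widths of 2115.5 and 1215 bp. H3K4me1 summits flanking a peak with FLI1 were a median of 1923 bp apart, against 1236 bp without FLI1. The difference of 21.9 points between the 747 and the 9590 peaks was 8.64 points with H3K4me1 cut to equal length. With peaks merged within 500 bp, which changes both sets, it was 32.7 points. The part of width in these differences was not tested.

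Stronger H3K27ac peaks overlapped H3K4me1 more often, and they were wider. In 5 groups of equal size by fold enrichment, from lowest to highest, the overlapping shares were 63.1%, 61.8%, 62.9%, 66.9% and 77.9% (76.1 to 79.6). Median width rose from 410 bp in group 1 to 1448.5 bp in group 5, and fold and width were correlated over H3K27ac peaks (Spearman correlation 0.576, n = 10337). The difference between groups 5 and 1 was 14.8 points, and 32.1 points with H3K4me1 cut to equal length. When peaks were first grouped by width, the relation to fold was not seen. In width groups 1 to 4 the upper 50% by fold overlapped H3K4me1 less often than the lower 50%: 47.2% against 55.7% in the shortest peaks, 50.3% against 59.1%, 63.2% against 65.7%, and 70.9% against 74.4%. The widest peaks had 90.2% against 88.4%. Across width groups the share rose throughout. H3K27ac peaks around 300.5 bp wide with high fold thus had the lowest share, and broad peaks nearly always met H3K4me1.

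**Figure D2:**
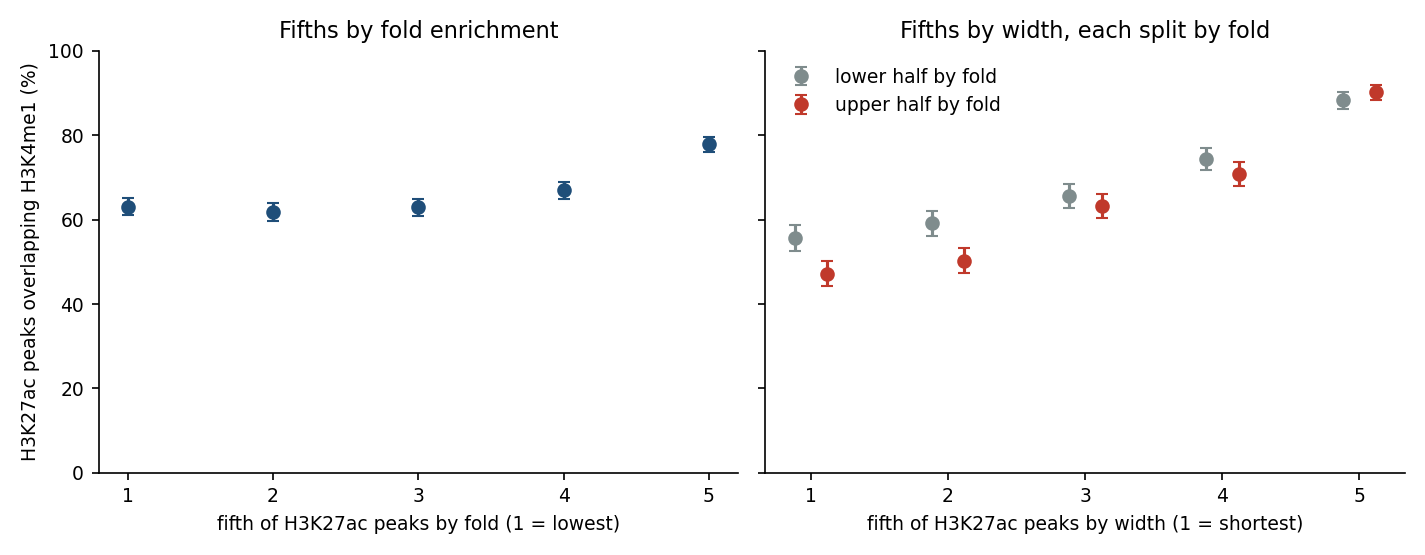
Share of enhancer H3K27ac peaks overlapping H3K4me1, in percent with Wilson 95% intervals, in 5 groups by fold enrichment (left) and in 5 groups by width, each split into lower and upper 50% by fold (right). The share reaches 77.9% in the group of highest fold, yet at similar width the upper fold group is lower in width groups 1 to 4 and rises with width to 90.2%.

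H3K4me1 peaks of higher fold also overlapped H3K27ac more often, with the largest step at the highest group. Their shares overlapping H3K27ac were 20.8%, 21.5%, 22.0%, 24.7% and 36.7% (35.5 to 38.0) from the lowest to the highest fold group, and median width went from 481 to 860 bp. The difference between groups 5 and 1 was 15.9 points, and 8.22 points among peaks with a −log10 p of at least 15. Even in the highest group most H3K4me1 peaks overlapped no enhancer H3K27ac peak.

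Heights of the marks were weakly related within overlapping pairs. The Spearman correlation between the fold enrichments was 0.199 over 7893 pairs, 0.152 for −log10 p, and 0.295 when each of 6876 H3K27ac peaks was paired with its highest H3K4me1 partner. Pairs share their DNA, its copy number and its mappability, and pairs of 1 wide peak share that peak, so these values are descriptions. Of H3K27ac peaks in fold group 1, 27.1% of pairs had an H3K4me1 peak of group 1 and 16.6% one of group 5. For H3K27ac fold group 5 these shares were 12.6% and 37.7%. By H3K27ac width the correlation went from 0.328 in the shortest group to 0.198 in the widest. It was 0.230 in 845 pairs with FLI1 and 0.225 in 7048 without.

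The correlation was above 0 on 22 of 23 chromosomes and, leaving out chromosome 8, ranged from -0.00627 to 0.283. On chromosome 8 it was 0.448 over 407 pairs, which combined regions of different enrichment. Between chr8:119891601-142733953, a segment picked from earlier results, the median fold was 3.95 for 179 H3K27ac peaks and 4.29 for 598 H3K4me1 peaks. Before that segment it was 7.15 and 6.37. The correlation was 0.117 over 173 pairs inside the segment and 0.138 over 207 pairs before it. Without chromosome 8 the overall correlation was 0.181.

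NuRD subunits and FLI1, which the rule had not used, were more frequent where the marks met. CHD4 overlapped 42.4%, 34.6% and 20.3% of overlapping, adjacent and solitary H3K27ac peaks, HDAC2 43.1%, 33.7% and 15.6%, MTA2 41.8%, 31.4% and 16.0%, and RBBP4 29.9%, 21.6% and 10.9%. All 4 subunits met at 21.6%, 15.0% and 4.70%, and none at 41.1%, 53.2% and 68.2%. FLI1 overlapped 8.45%, 6.89% and 3.62%. Repressive H3K27me3 overlapped 0 enhancer H3K27ac peaks. With 3 peaks taken as the limit of a count of 0, this allows up to 0.0436% of the overlapping ones. At H3K4me1 enhancer peaks it overlapped 0 of 7285 overlapping, 0 of 1777 adjacent and 4 of 19889 solitary peaks (0.0201%). Its near absence was thus not particular to H3K27ac, and its whole list held 3420 peaks.

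Width again moved with class. Within each of 5 groups of similar H3K27ac width the subunits were more frequent at overlapping than at solitary peaks, by 2.23 to 20.3 percentage points for CHD4 and 9.04 to 31.1 for HDAC2. In the widest group HDAC2 overlapped 70.8% (68.7 to 72.8) of 1847 overlapping and 39.7% (31.7 to 48.3) of 131 solitary peaks. FLI1 was less frequent at overlapping peaks in all 5 groups, but the intervals overlapped in each. In the widest group it overlapped 27.02% (25.04 to 29.1) of overlapping and 29.8% (22.6 to 38.1) of solitary H3K27ac peaks, and in the shortest 1 of 1063 and 2 of 645 peaks. The higher share of FLI1 at overlapping peaks was therefore not present within width groups, while that of the subunits was. In the shortest group, however, intervals overlapped for CHD4 (11.6 to 15.7 against 9.10 to 14.0) and RBBP4 (4.58 to 7.41 against 2.64 to 5.66). In the widest, overlapping peaks were still wider than solitary ones (medians 1852 and 1502 bp).

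H3K4me1 peaks without H3K27ac had few of these proteins. They were also narrower than overlapping ones (medians 520 and 766 bp), and the part of width was not tested for H3K4me1. CHD4 overlapped 35.2% of overlapping, 15.0% of adjacent and 10.4% of solitary H3K4me1 peaks, HDAC2 33.5%, 18.3% and 13.6%, MTA2 30.6%, 12.7% and 10.4%, and RBBP4 17.6%, 6.81% and 6.04%. No subunit was found at 78.5% (77.9 to 79.1) of the solitary peaks. FLI1 overlapped 80 (1.10%), 5 (0.281%) and 42 (0.211%) peaks. Of those 42, 5 overlapped an H3K27ac peak outside the enhancer subset, so 37 of 19166 H3K4me1 peaks with no H3K27ac of any kind within 1 kb met FLI1 (0.193%). The whole lists differ in length, with 20633 peaks for HDAC2, 13288 for CHD4, 13462 for MTA2 and 13725 for RBBP4, so the subunits are not ranked. The FLI1 list was far shorter, with 1561 peaks down to a −log10 p of 5.02, and that length limits its shares. More of the solitary H3K4me1 peaks lay inside a protein-coding gene (63.1%) than of overlapping H3K4me1 peaks (50.4%).

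**Figure D3:**
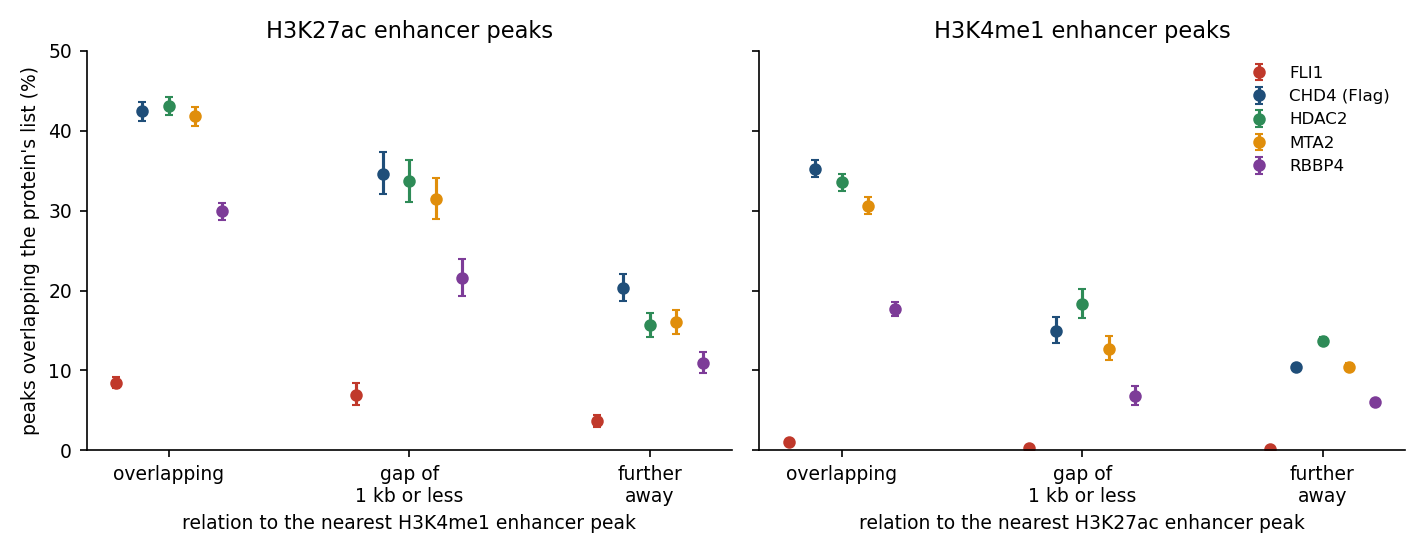
Share of enhancer H3K27ac peaks (left) and H3K4me1 peaks (right) that overlap a peak of FLI1 or a NuRD subunit, in percent with Wilson 95% intervals, by relation to the nearest enhancer peak of the other mark. Each share falls from overlapping to solitary peaks, for CHD4 from 42.4% to 20.3% at H3K27ac and from 35.2% to 10.4% at H3K4me1. Median width falls too, from 697.5 to 449 bp at H3K27ac and from 766 to 520 bp at H3K4me1.

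Among the 10 overlapping pairs of highest mean rank in both lists, 5 overlapped FLI1. FLI1 overlapped 8.45% of all overlapping H3K27ac peaks and 27.02% of those in the widest group. A pair 30.0 kb from NKX2-2, a homeobox factor that EWSR1::FLI1 activates, joined H3K27ac at chr20:21552673-21558651 (fold enrichment 27.3, −log10 p 137) with H3K4me1 at chr20:21556145-21557521 (10.9). The pair within CHAT, which makes acetylcholine, joined chr10:49645336-49651163 (26.4) with chr10:49648420-49649407 (11.1), their summits 28 bp apart. A pair within MAPK10, a neuronal stress kinase gene, joined chr4:86552645-86555517 (26.9) with chr4:86553288-86554704 (11.1). These 3 also overlapped FLI1 and all 4 subunits, as did the pairs nearest to NCKAP5 and SYT6, a synaptotagmin gene. The pair within MAPT, which encodes tau, joined chr17:45934580-45937555 (22.7) with chr17:45934686-45936590 (10.97), their summits 34 bp apart and without FLI1. The other 4 were nearest to ZCCHC24, ATP8B1 (a phospholipid flippase), PWWP2B and CCR7 (a chemokine receptor), and had no FLI1 peak. All 10 overlapped CHD4, HDAC2 and MTA2, and all but that of PWWP2B overlapped RBBP4. Over all overlapping H3K27ac peaks the shares of CHD4, HDAC2, MTA2 and RBBP4 were 42.4%, 43.1%, 41.8% and 29.9%. In the widest group, they were 76.8%, 70.8%, 76.6% and 61.9%, so much of this is shared by broad peaks.

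The 2 strongest solitary H3K27ac peaks were short, 474 bp at chr1:144560728-144561201 (fold 32.2, nearest to PPIAL4F) and 466 bp at chr1:143729462-143729927 (27.6, nearest to the histone gene H3-7). Of FLI1 and the 4 subunits only MTA2 overlapped them, and only the second. Both lie towards the centromere on the long arm of chromosome 1, where reads can be hard to place, and their mapping was not tested. Of the next 8, 5 overlapped FLI1 and all 4 subunits. They were chr18:63377844-63379612 (22.2) and chr18:63375757-63377430 (20.1), on either side of a gap of under 1 kb and nearest to VPS4B and KDSR, chr9:87482650-87484693 (21.2, DAPK1, a death-associated kinase gene), chr10:26676107-26676943 (20.6, PDSS1) and chr14:98496832-98500265 (19.4). The last was 669 kb from BCL11B, a zinc finger factor of neurons and T cells. The others had no FLI1 peak. CHD4 and MTA2 overlapped those nearest to FCGRT and SHQ1, and all 4 subunits that nearest to KDM3A, a histone demethylase gene. None of the 10 had an H3K4me1 peak of the whole list within 1 kb. FLI1 overlapped 3.62% of all solitary H3K27ac peaks and 29.8% of the 131 in the widest group. All 4 subunits met at 4.70% of all solitary H3K27ac peaks.

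The strongest solitary H3K4me1 peaks carried fewer proteins than the strongest solitary H3K27ac peaks. FLI1 overlapped none of the 10, and 0.211% of all solitary H3K4me1 peaks, so its absence is not a result about these 10. Of all solitary H3K4me1 peaks, 78.5% had no subunit, a larger share than among these 10. Only chr13:75437828-75439423 within TBC1D4 (fold 14.0) overlapped all 4 subunits. No subunit overlapped the peaks nearest to SOCS3 (chr17:78316310-78317867, 13.3), FER1L5, CD2BP2 and DNAH17. SOCS3 encodes an inhibitor of cytokine signalling. MTA2 alone overlapped the peak nearest to HNRNPA3 (13.8), HDAC2 and MTA2 those nearest to SLC16A3 and ATP7B, and HDAC2 alone that within NRXN2. The NRXN2 peak overlapped an H3K27ac peak outside the enhancer subset, and the other 9 had none within 1 kb.

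Each enhancer peak was given to the protein-coding gene with the nearest end within 100 kb, which is a position and not expression. Of 19974 genes, 2694 (13.5%) were nearest to peaks of both marks, 3251 (16.3%) to H3K4me1 only, 363 (1.82%) to H3K27ac only and 13666 (68.4%) to neither. Genes with more room around them collect more peaks. The share with both marks was 3.54% among the genes of smallest territory (the positions nearest to its ends, up to 100 kb to either side of each) and 26.1% among those of largest territory. The lists below were set from general knowledge with earlier results of these data known, and each is given with its median territory, which is 57.1 kb for all genes.

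Genes activated by EWSR1::FLI1 were near both marks in 19 of 30 cases, with 3 near H3K4me1 only, 3 near H3K27ac only and 5 near neither (median territory 145 kb). PRKCB, a protein kinase C gene, had 14 H3K27ac and 18 H3K4me1 peaks, and 9 of the former overlapped H3K4me1. IL1RAP, an interleukin receptor accessory gene, had 8 and 23, NKX2-2 had 9 and 14, POU3F1, a neural POU factor gene, had 5 and 17, and PPP1R1A, a phosphatase inhibitor gene, had 10 and 8. The 3 near H3K27ac only were CCK, NR0B1 and KDSR, named after their values were seen. Genes repressed by EWSR1::FLI1 had a different make-up: 3 of 20 were near both, 11 near H3K4me1 only, 0 near H3K27ac only and 6 near neither (109 kb). CYP1B1, a cytochrome P450 gene, had 6 H3K27ac and 9 H3K4me1 peaks, ZYX, an adhesion protein gene, 1 and 5. IGFBP5, CDH11 and FOXO1 had 6, 6 and 5 H3K4me1 peaks and 0 H3K27ac peaks. Of the 20 repressed genes, 11 were thus near H3K4me1 without enhancer H3K27ac. This held for 1024 of 4993 genes in the territory group of median 87.0 kb. In the group of median 201 kb it held for 1319 of 4994. Among all genes, the share near both marks was 16.0% in the territory group of median 87.0 kb and 26.1% in that of 201 kb. The 15.0% of repressed genes was thus near that of all genes of such territory. No test compares the lists.

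Core regulatory factors of Ewing sarcoma were near both marks in 8 of 10 cases (262 kb), against 26.1% in the territory group of median 201 kb. MEIS1, a homeobox factor gene, had 5 H3K27ac and 38 H3K4me1 peaks, of which 34 were solitary, and RREB1, a zinc finger factor gene, had 8 and 32, of which 22 were solitary. KLF15 had 11 H3K27ac peaks, all overlapping or adjacent, and 15 H3K4me1 peaks. At NKX2-2, 7 of 9 H3K27ac peaks overlapped H3K4me1 and 1 of 14 H3K4me1 peaks was solitary. Within this list, solitary H3K4me1 peaks were thus many at MEIS1 and RREB1 and few at NKX2-2.

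At NKX2-2 a second broad H3K27ac peak, chr20:21572850-21579920 (7071 bp, fold 17.3), overlapped 4 H3K4me1 peaks of fold 4.12 to 5.70, and like the first it overlapped FLI1 and all 4 subunits. None of the 14 H3K4me1 peaks there overlapped FLI1. At KLF15 the widest H3K27ac peak, chr3:126258398-126263528 (5131 bp, 12.5), overlapped 2 H3K4me1 peaks and all 4 subunits. A solitary H3K4me1 peak at chr3:126290621-126293032 (10.97) overlapped FLI1 and all 4 subunits, and it lay on an H3K27ac peak that the rule had left out of the enhancer subset. At CAV1, a caveola gene, the H3K4me1 peak chr7:116521707-116522961 (4.92) was of the same kind.

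**Figure D4:**
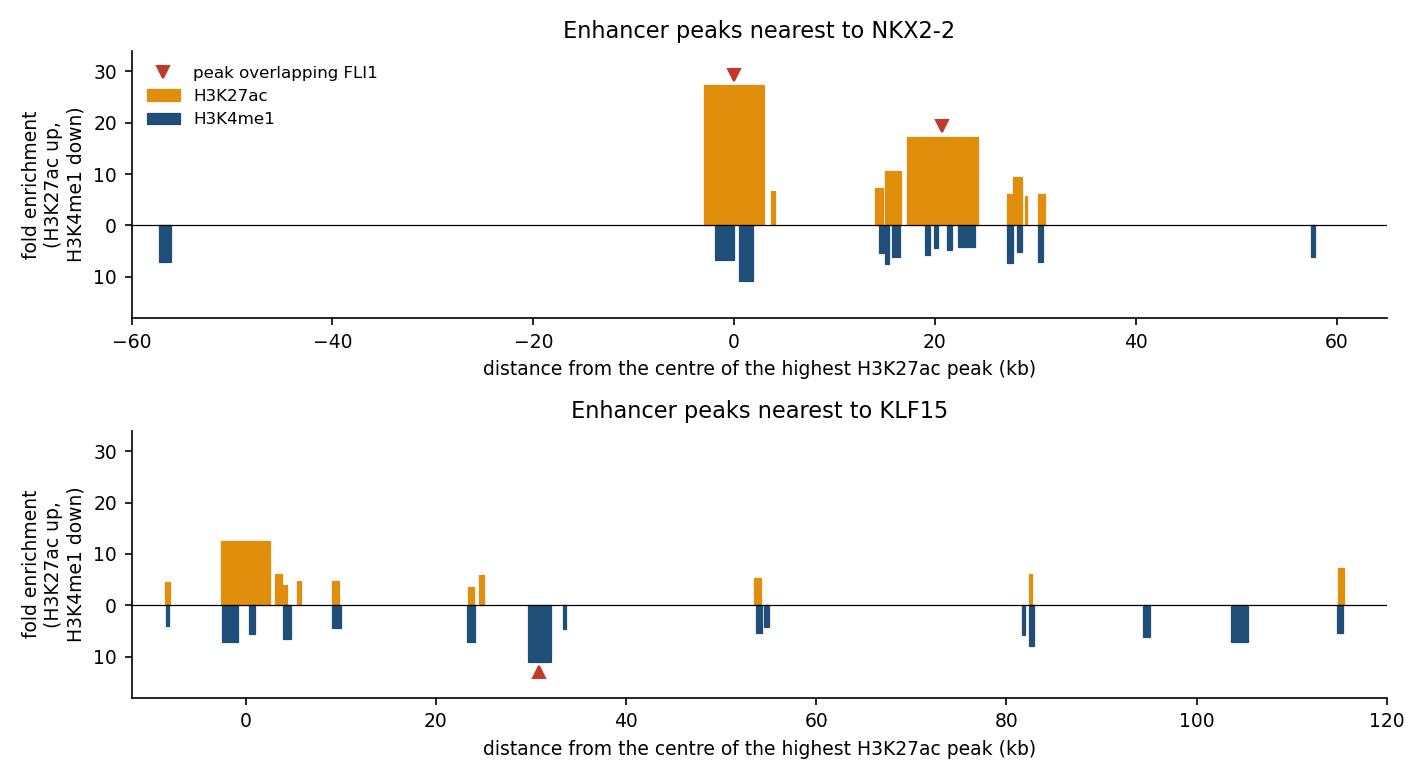
Enhancer peaks nearest to NKX2-2 (top) and KLF15 (bottom), drawn to scale against distance in kb from the centre of the highest H3K27ac peak, with bar height giving fold enrichment, H3K27ac upward and H3K4me1 downward. Red triangles mark peaks that overlap FLI1, which are the 2 broad H3K27ac peaks near NKX2-2 (folds 27.3 and 17.3) and 1 H3K4me1 peak near KLF15 (10.97).

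Among genes of other tissues, neural and neural crest genes were near both marks in 14 of 27 cases (206 kb). Of all genes in the territory groups of median 87.0 and 201 kb, 16.0% and 26.1% were near both. In those groups 1024 of 4993 and 1319 of 4994 genes were near H3K4me1 only. TFAP2B, a neural crest factor gene, had 14 H3K27ac and 17 H3K4me1 peaks, PAX7 had 7 and 5, PAX3 had 4 and 8, EPHA3, an ephrin receptor gene, had 2 and 15, and SNAP25, a synaptic vesicle fusion gene, had 5 and 5. Mesenchymal and matrix genes were near both in 8 of 23 cases (151 kb), with COL5A1 at 6 and 9 and ZEB2, an EMT factor gene, at 4 and 18. None of the H3K27ac peaks nearest to ZEB2 overlapped H3K4me1. Genes of WNT, IGF and TGF-beta signalling were near both in 10 of 22 cases and near H3K4me1 only in 7 (169 kb). SMAD7, the inhibitory SMAD, had 9 H3K27ac peaks, all overlapping H3K4me1, and SMAD3, a TGF-beta effector, had 5 H3K27ac peaks and 19 H3K4me1 peaks, of which 16 were solitary.

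Neuroblast genes were near both marks in 0 of 10 cases (95.5 kb), muscle genes in 1 of 13 (45.7 kb, PAX7), blood genes in 1 of 13 (39.1 kb, PTPRC, with 8 H3K27ac and 18 H3K4me1 peaks) and housekeeping genes in 0 of 15 (43.0 kb). Of all genes, 13.5% were near both marks, with 8.31% in the territory group of median 39.0 kb and 16.0% in that of 87.0 kb. Muscle and blood genes, at 7.69% each, were thus near the share of genes of such territory, and these counts are small. Epithelial genes were near both in 6 of 12 cases (58.2 kb). TP63 had 10 H3K27ac and 26 H3K4me1 peaks, KRT18 had 6 and 7, and GRHL2 had 5 and 6. Of markers that define cell types, 7 of 11 for Ewing sarcoma were near both marks, as were 4 of 5 for epithelium, 1 of 4 for blood, 0 of 4 for muscle and 0 of 3 for neuroblasts. The epithelial marker CDH1 was near neither mark. Of the Ewing sarcoma markers, 1 was near H3K4me1 only, 1 near H3K27ac only and 2 near neither.

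**Figure D5:**
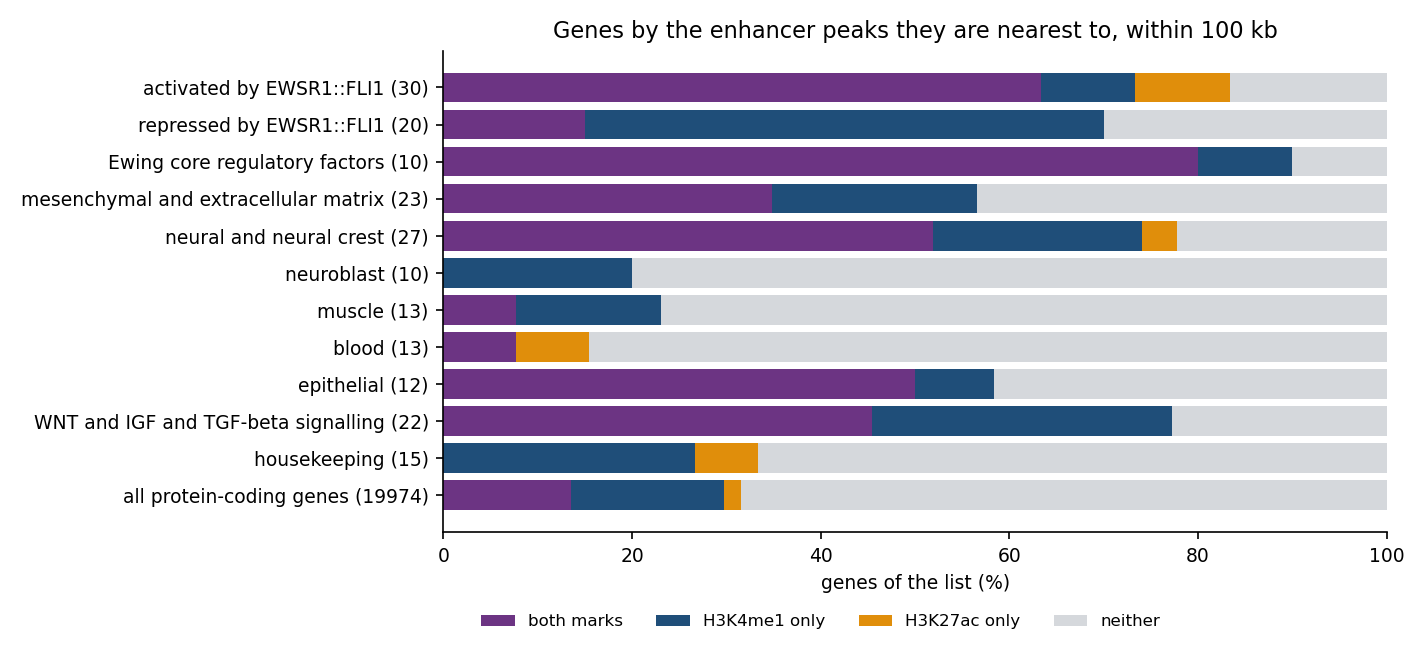
Share of the genes of each list, in percent, that are nearest within 100 kb to enhancer peaks of both marks, H3K4me1 only, H3K27ac only or neither, with list sizes in brackets. Activated genes and core factors have 63.3% and 80.0% near both marks against 13.5% of all genes. These lists have larger territories than all genes (medians 145 and 262 against 57.1 kb). Of all genes in the territory groups of median 87.0 and 201 kb, 16.0% and 26.1% are near both. Repressed genes have 15.0%, with most of the rest near H3K4me1 only.

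Over all genes, SIRPA, an inhibitory receptor gene, had the most H3K27ac peaks with H3K4me1 within 1 kb (25), followed by LINGO1, a neuronal receptor component, and PKHD1, a cilium gene (23 each), XXYLT1 (18), TPRG1 (17), AHDC1 and PREX1 (16 each) and LY86, NFIX and SHB (15 each). JARID2, a cofactor of Polycomb complex PRC2, had the most solitary H3K4me1 peaks (42), followed by MEIS1 (34), LMX1A (27), LINGO1, MED13L, MLLT3, RERE and ZSWIM6 (25 each) and EFNA5 and RREB1 (22 each). LINGO1 was in both groups. Of genes near a single mark, named after their values were seen, MBNL1 and SLX4IP had 17 H3K4me1 peaks and GLI3, a Hedgehog pathway factor gene, had 16, with 0 H3K27ac peaks. MYOM2, a muscle protein gene, had 10 H3K27ac peaks and ADGRG2 and TNFAIP6 had 7 each, with 0 H3K4me1 peaks.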

How the data were processed

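ChIP-seq peak lists of 9 targets in SK-N-MC were used, 1 per target, grouped by the target in the labels. The 2 inputs were not analysed here. Per the submitters' processing notes the authors worked on GRCh38 with BWA 0.7.17, bedtools 2.27.1, SAMtools 1.9, Trimmomatic 0.36, deepTools 3.2.1 and FastQC 0.11.7. MACS2 stands in the deposited peak names. The sources used here do not give its version, the control library, any pooling or the excluded regions. The deposited values of a peak are its fold enrichment, which is a ratio to the background near it as the authors' caller estimated it, and its −log10 p. The deposited −log10 q was not used. The smallest −log10 p was 9.02 in the H3K27ac list and 9.01 in the H3K4me1 list, so weaker sites are not listed, and the read depth that sets this limit is unknown. In the H3K27ac list 196 peak numbers are skipped, and in the H3K4me1 list 83. Some peaks were cut, and 3 enhancer peaks of each mark whose summit fell outside the remaining peak were left out of summit measures. Regions with extra copies reach a given p at a lower fold.

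Gene positions came from the RefSeq table of GRCh38.p14 (19974 protein-coding genes), which gives no strand, so either end of a gene stands for its start. Peaks were compared in Python 3.11.15 with numpy 2.4.6, pandas 2.3.3 and scipy 1.17.1, with a minimum overlap of 1 bp. The code was tested on simulated peaks with known overlaps. Members, gene lists (11 lists, 195 entries, all matched by symbol) and measures were chosen with earlier results of these data known. Named regions were the 10 overlapping pairs of highest mean percentile of fold, the 10 strongest solitary peaks of each mark, the 10 genes nearest to most such peaks, and up to 5 members of each list nearest to most peaks. A region that this rule names is not reported here. Alternatives were a −log10 p of at least 15, overlap of 50% of the shorter peak, the whole partner list, H3K4me1 cut to the length of the H3K27ac list, merging within 500 bp, no H3K4me3 within 1 kb, and leaving out chromosome 8.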

Additional observations from a re-analysis of the deposited data

How the results depend on the processing

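No value changed sign. Requiring a −log10 p of at least 15 gave 59.5% of H3K27ac peaks overlapping H3K4me1, 27.1% of H3K4me1 peaks overlapping H3K27ac and 24.0% of H3K27ac peaks flanked on both sides. Counting an overlap only from 50% of the shorter peak gave 62.8% and 23.7% overlapping, 15.7% of H3K27ac peaks adjacent and a median summit distance of 173.5 bp. With the H3K27ac list taken whole, 26.4% of H3K4me1 peaks overlapped it. Cutting H3K4me1 to its 10337 strongest peaks gave 32.8% and 31.6% overlapping, 7.13% flanked, a rank correlation of fold enrichment of 0.104 and a summit distance of 235 bp. The overlapping shares, 66.5% and 25.2% with the lists as deposited, thus depend on how long the H3K4me1 list is. Merging peaks within 500 bp gave 71.8% of H3K27ac peaks overlapping, 6.03% adjacent, 16.6% flanked and a summit distance of 279 bp, since flanking peaks were joined. Apart from these effects of the settings' own construction, the cause was not tested. Asking for no H3K4me3 within 1 kb, or leaving out chromosome 8, left all 7 main values within their intervals, 0.05 in correlation or 1.5 times in the gene count, as did the other combinations not given here. Sites too weak for the authors' threshold cannot be told from unmarked sites. No paired analysis was possible because each target has 1 sample and no test was run.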
